A study of Mus musculus with 4 samples.

Results

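The SO library was set directly against the Ldha_KO library, to see where an inhibitor treatment and the loss of a lactate dehydrogenase gene left different transcript levels in mouse embryonic stem cells. Every gene symbol with a deposited value of at least 1 in either library was compared, which gave 12748 of 25170 symbols. The study measured polyadenylated RNA in 4 libraries, 1 per group, and its title concerns Ldha, lactylation of Hdac1 and the state of the 2-cell embryo. Values were read as FPKM from their range and steps. FPKM is the number of sequenced fragments scaled by transcript length and library depth. A difference is log2(FPKM + 1) in SO minus the same in Ldha_KO, which understates the change of genes with low values.

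The SO cells were labelled wild type and received the treatment that the labels call SO. The series text describes it as an inhibitor treatment, the name is not spelled out, and its dose and length were not given in the sources used here. Cells of the Ldha_KO group were labelled as an Ldha knockout with no inhibitor named. The Ldhb_KO cells, an Ldhb knockout, and the WT cells, described as E14, served as background values beside named genes. All groups shared serum medium with LIF on gelatin, and no feeder cells were named. The number of clones behind each knockout is not given. Each group had a single library, so no difference below has an error or a test, and each compares libraries, not conditions.

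Lactate dehydrogenase is a tetramer of A subunits, encoded by Ldha, and B subunits, encoded by Ldhb, which interconverts pyruvate and lactate while recycling NADH. Lactate can also supply lactylation, an acyl mark on lysines of histones and other proteins. A small and changing share of cultured mouse embryonic stem cells enters a state that resembles the 2-cell embryo, marked by Dux, the Zscan4 genes and transcripts of MERVL elements.

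The SO and Ldha_KO libraries were close in scale. Summed values were 471595 in SO and 477538 in Ldha_KO, beside 484528 in Ldhb_KO and 526316 in WT. Genes at 1 or more numbered 12376 in SO, 12396 in Ldha_KO, 12577 in Ldhb_KO and 11952 in WT. Among genes below 0.2, 1 read was worth 0.951 as much in SO as in Ldha_KO, which puts the depth of SO at 1.05 times that of Ldha_KO. The value of 1 read in SO over that in WT was almost constant across genes, with a span of 0.0169% between the 10th and 90th percentiles. In SO over Ldha_KO this span was 0.641%, and between the knockouts it was 0.226%. By this measure SO stood with WT, so the comparison of SO with Ldha_KO crosses a split between libraries. The labels name no batch, and its part in the differences below was not tested.

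Ldha was the gene that stood highest in SO over Ldha_KO, by 3.47 on the log2 scale. It was at 1711 in SO, 153.9 in Ldha_KO, 2237 in Ldhb_KO and 1774 in WT, so the level in SO was 11.1 times that in Ldha_KO and close to that in WT. The loss of Ldha transcript was thus seen in the knockout and not under the inhibitor. Mouse Ldha has many pseudogenes that could share its reads, which makes the level left in Ldha_KO uncertain.

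The other kept lactate genes differed less than 2-fold. Ldhb was at 139 in SO, 158 in Ldha_KO, 5.74 in Ldhb_KO and 76.5 in WT, a difference of -0.17 between SO and Ldha_KO. Ldhc, the subunit of the testis form, was at 2.58 in SO, 4.60 in Ldha_KO, 3.11 in Ldhb_KO and 1.24 in WT. Its difference was -0.65. The monocarboxylate transporters that carry lactate differed little. Slc16a1 was at 67.9 in SO and 81.4 in Ldha_KO, and Slc16a3 was at 131 in SO and 112 in Ldha_KO. Their chaperone Bsg was at 530 in SO and 475 in Ldha_KO. Of 13 genes of lactate dehydrogenase and lactate transport, 8 were kept, and Ldha was the 1 member that differed 2-fold.

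Genes next to Ldha on chromosome 7 did not share its difference. Of the 20 nearest listed symbols, 10 on each side, 10 were kept and 0 differed 2-fold. Their differences ran from -0.78 to 0.31 with a median of -0.16. Sergef lay at the low end, at 2.67 in SO and 5.31 in Ldha_KO, and Uevld, which has an Ldh-like domain, lay at the high end, at 4.81 in SO and 3.68 in Ldha_KO.

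Over all 12748 kept genes, 98 were at least 2-fold higher in SO than in Ldha_KO, which is 0.769%, and 144 were at least 2-fold lower, which is 1.13%. A call of 2-fold here means a difference of at least 1 on the log2(FPKM + 1) scale. The other 98.1% of genes lay within 1 of each other. The median difference was 0.0047, the 5th percentile was -0.57 and the 95th was 0.61. By 4-fold or more, 4 genes were higher and 8 were lower. Of 9393 genes with at least 5 in the higher library, 69 were higher and 94 were lower. Where the higher level was at least 100, 2 of 903 genes were higher and 5 were lower. Of the genes lower in SO, 8 were listed at 0 in SO, and of those higher in SO, 3 were listed at 0 in Ldha_KO, so these have no fold.

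**Figure D1:**
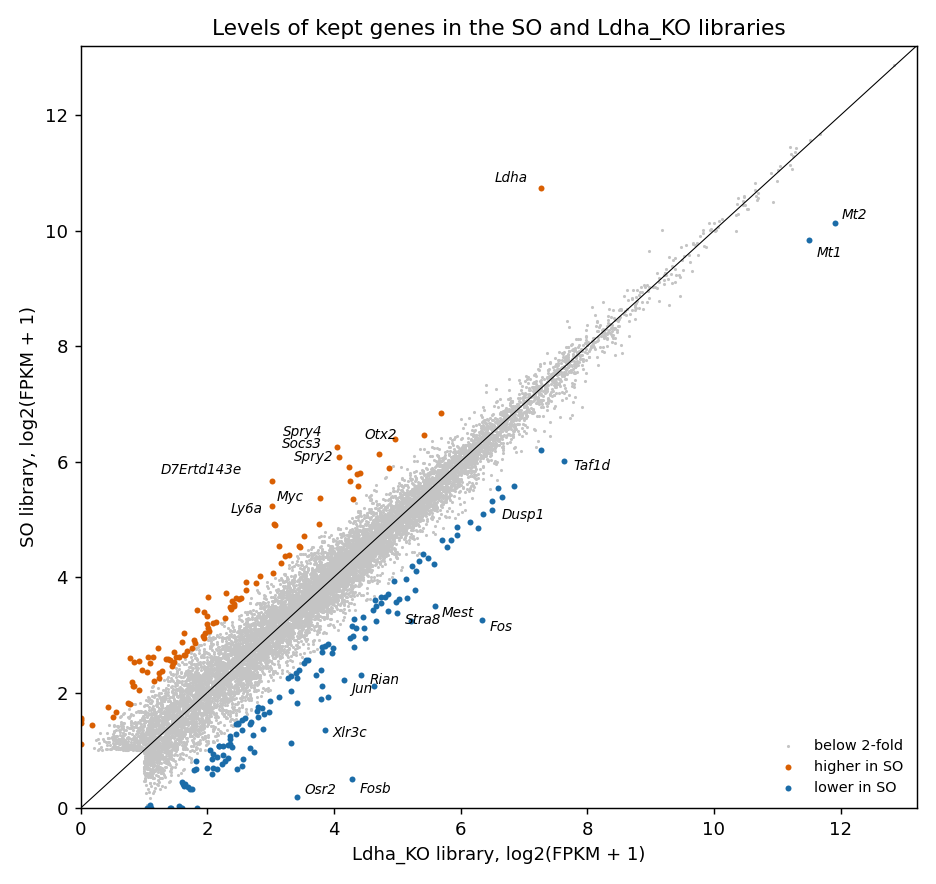
Each point is 1 of the 12748 kept genes, with its level in Ldha_KO on the horizontal axis and in SO on the vertical axis, both as log2(FPKM + 1); coloured points differ by at least 1. Most genes lie near the diagonal, while Ldha lies far above it at 1711 in SO against 153.9 in Ldha_KO, and Fos and Fosb lie far below it.

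The filter at 1 had no gap around it. Just inside it lay Fbxo47, at 1.0003 in SO and 1.0004 in Ldha_KO, Ptchd3, at 1.0004 in SO and 0.851 in Ldha_KO, and Jph3, at 0.603 in SO and 1.0007 in Ldha_KO. Just outside lay Gnasas1, at 0.9995 in SO and 0.788 in Ldha_KO, Tnnc2, at 0.999 in SO and 0.884 in Ldha_KO, and Zscan5b, at 0.997 in SO and 0.918 in Ldha_KO.

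After Ldha, the gene that stood highest was D7Ertd143e, a noncoding transcript on chromosome 7. It was at 49.9 in SO, 7.15 in Ldha_KO, 16.6 in Ldhb_KO and 24.5 in WT, a difference of 2.64. SO was the highest of the 4 libraries and Ldha_KO the lowest. In the RefSeq annotation of GRCm38.p6 this transcript spans 7 miRNA genes, Mir291a, Mir292, Mir292b, Mir291b, Mir293, Mir294 and Mir295, which form the miRNA cluster best known from embryonic stem cells. Libraries of polyadenylated RNA do not measure mature miRNAs, and all 7 miRNA genes were listed at 0 in every library. The mature 3' arms of 4 of them are shown, with the seed, bases 2 to 8, in capitals (RefSeq, GRCm38.p6). They carry the seed for which the cluster is known or differ from it in the last base.
mmu-miR-291a-3p: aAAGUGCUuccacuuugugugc
mmu-miR-294-3p: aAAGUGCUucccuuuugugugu
mmu-miR-295-3p: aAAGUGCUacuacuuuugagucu
mmu-miR-291b-3p: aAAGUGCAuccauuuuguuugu
The first 3 share the seed AAGUGCU, and the last ends its seed in another base. In mouse embryonic stem cells this seed family is known for targeting inhibitors of the G1 to S transition. Cdkn1a, which encodes such an inhibitor, was at 125 in SO and 130 in Ldha_KO.

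Genes of the lactate pathway's surroundings held few differences. Of 25 genes of glycolysis, all were kept and 0 differed 2-fold, with a median of 0.07. The member with the widest difference was Eno2, an enolase, at 6.19 in SO, 3.27 in Ldha_KO, 7.64 in Ldhb_KO and 3.46 in WT. The abundant enzymes were nearly level, as Pkm at 2223 in SO and 2100.5 in Ldha_KO and Aldoa at 1520 in SO and 1659 in Ldha_KO. The glucose transporters differed in opposite directions and less than 2-fold, Slc2a1 at 502 in SO and 393 in Ldha_KO, and Slc2a3 at 544 in SO and 646 in Ldha_KO.

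Mitochondrial metabolism was closer still. All 42 genes of oxidative phosphorylation lay between -0.26 and 0.27, with a median of -0.01. The 20 genes of the TCA cycle had a median of -0.11, and 0 differed 2-fold. Their widest difference was Dld, the dehydrogenase subunit shared by pyruvate and oxoglutarate dehydrogenases, at 49.3 in SO and 63.9 in Ldha_KO. Of 12 genes of the pentose phosphate pathway and NADPH supply, 0 differed 2-fold.

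Targets of the hypoxia factor Hif1 leaned higher in SO. Of 30 such genes 29 were kept, with a median of 0.26. Among these 1 was higher and 0 were lower, against 0.769% and 1.13% of all kept genes. The 1 was Ddit4, which restrains mTORC1, at 114 in SO, 50.9 in Ldha_KO, 213 in Ldhb_KO and 28.1 in WT. Egln3, a prolyl hydroxylase of Hif, was at 19.02 in SO and 11.4 in Ldha_KO, and Hif1a itself was at 31.6 in SO and 49.3 in Ldha_KO.

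**Figure D2:**
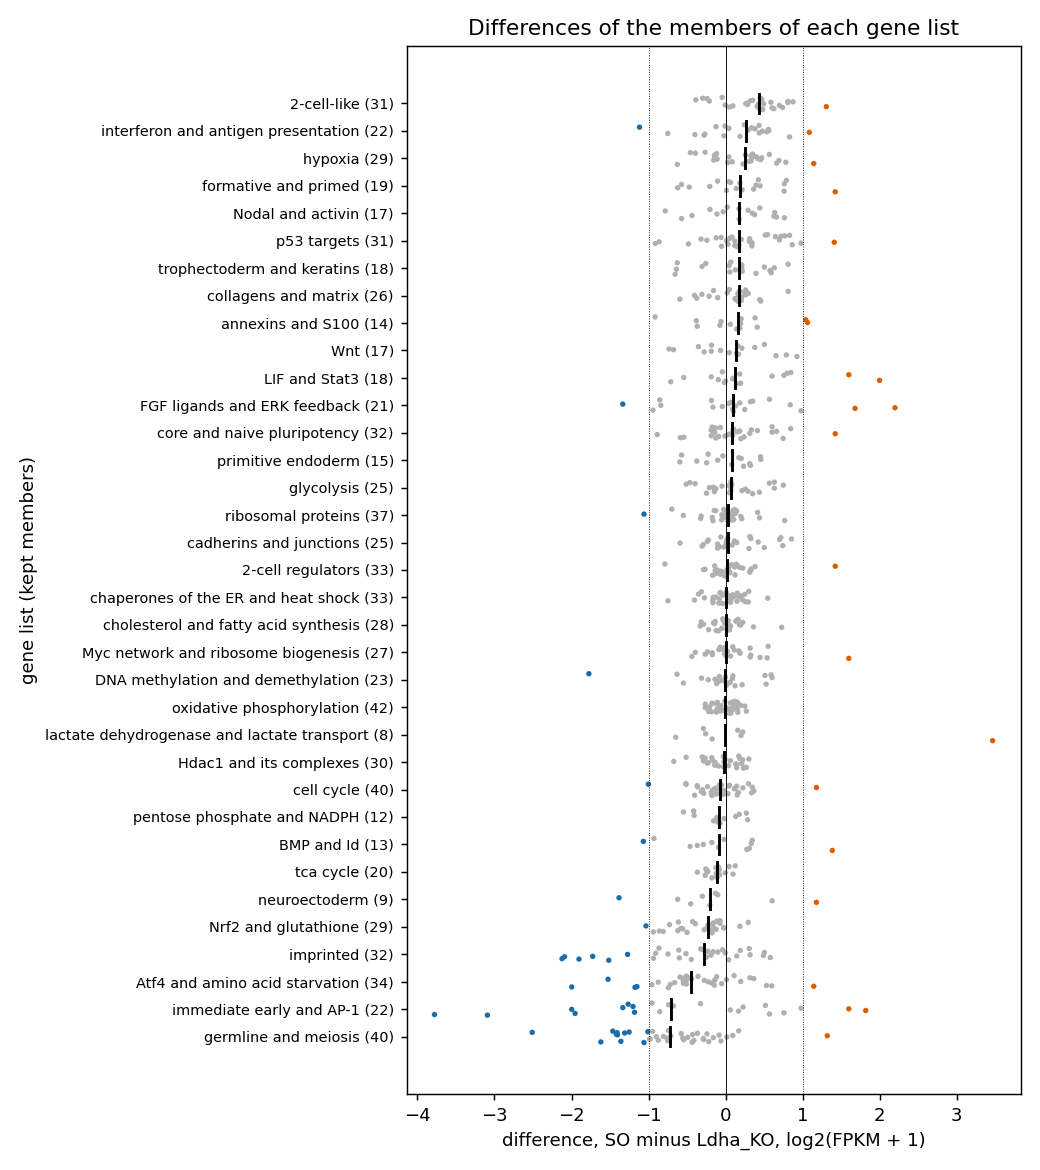
Each row is a gene list with at least 8 kept members, with the difference in log2(FPKM + 1), SO minus Ldha_KO, on the horizontal axis; grey points are kept members, coloured points differ 2-fold and the bar is the median of kept members. Medians of most lists lie near 0, while germline genes (-0.73) and immediate early genes (-0.71) lie lower and 2-cell-like genes (0.43) lie higher.

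Genes of the 2-cell-like state had a higher summed level in SO and Ldha_KO than in Ldhb_KO and WT, and were somewhat higher in SO. Of 46 such genes found 31 were kept. Of these, 25 were above 0 and 6 below, and the median was 0.43, against 0.0047 over all kept genes. Over all 46, with no filter, it was 0.29. Only Tdpoz4 differed 2-fold, so the list held 1 higher and 0 lower, against 0.769% and 1.13% of all kept genes. The other 30 members lay under the 2-fold call. With a filter of 5 Tdpoz4 dropped out, and with a pseudocount of 0.1 the higher members numbered 3. Their summed level was 430 in SO, 352 in Ldha_KO, 150 in Ldhb_KO and 199 in WT. SO and Ldha_KO thus stood above both other libraries. In bulk RNA a larger share of cells in this state and more RNA per such cell cannot be told apart.

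The Zscan4 genes, zinc finger factors of the 2-cell embryo that act on telomeres in embryonic stem cells, all lay in the same direction. Zscan4c was at 16.9 in SO, 10.6 in Ldha_KO, 2.06 in Ldhb_KO and 2.03 in WT, a difference of 0.63. Zscan4d was at 14.5 in SO, 10.5 in Ldha_KO, 1.92 in Ldhb_KO and 1.72 in WT, a difference of 0.43. The other 3 Zscan4 genes lay between these differences, and 0 of the 5 differed 2-fold. These near-identical copies share reads, so the level of a single copy is uncertain.

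Other members of the state varied more. Tdpoz4, of a family expressed in the early embryo, was at 4.10 in SO, 1.06 in Ldha_KO, 0.50 in Ldhb_KO and 0.525 in WT. Zfp352 was at 1.67 in SO, 0.597 in Ldha_KO, 0.106 in Ldhb_KO and 0.186 in WT, a difference of 0.74 that became 1.34 with a pseudocount of 0.1. Tcstv3 was at 7.52 in SO and 7.23 in Ldha_KO. The 5 Usp17l genes, a deubiquitinase family active in this state, had a median of 0.28 and 0 of them differed 2-fold. Eif4a3l1 was at 18.5 in SO and 9.64 in Ldha_KO. Dux, the factor that can start the state in mouse cells, was below the filter, at 0.161 in SO, 0.254 in Ldha_KO and listed at 0 in Ldhb_KO and WT.

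Genes known to regulate this state were nearly level between SO and Ldha_KO. Of 35 found 33 were kept, with a median of 0.02. Among these 1 was higher and 0 were lower, against 0.769% and 1.13% of all kept genes. Dppa3, a maternal factor that protects DNA methylation in the early embryo, was the 1 gene that differed 2-fold, at 4.24 in SO, 0.952 in Ldha_KO, 10.3 in Ldhb_KO and 4.03 in WT. Trim28, a corepressor that silences retroelements, was at 723 in SO and 724 in Ldha_KO. Hdac1, the deacetylase named in the study's title, was at 49.4 in SO, 42.0 in Ldha_KO, 44.7 in Ldhb_KO and 56.1 in WT, a difference of 0.23. Of 30 genes of Hdac1 and its complexes 0 differed 2-fold, with a median of -0.02. The widest was Gatad2b, a subunit of the NuRD complex, at 19.08 in SO and 31.0 in Ldha_KO. RNA levels say nothing of the lactylation of Hdac1.

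Several of the widest differences were in immediate early genes, which cells transcribe within minutes of a growth signal or stress and which encode the AP-1 factors of the Fos, Jun and Atf families. Of 26 such genes 22 were kept, 2 were higher in SO and 8 were lower, against 0.769% and 1.13% of all genes. The median of the kept members was -0.71, and over all 26, with no filter, it was -0.32. Those lower were Fosb, Fos, Atf3, Jun, Dusp1, Ccn2, Klf6 and Jund, and those higher were Ier3 and Myc.

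Fosb was at 0.423 in SO, 18.5 in Ldha_KO, 0.160 in Ldhb_KO and 0.190 in WT, a difference of -3.78. Fos was at 8.52 in SO, 80.2 in Ldha_KO, 8.70 in Ldhb_KO and 4.298 in WT, a difference of -3.09. Jun, the usual partner of Fos, was at 3.63 in SO, 16.9 in Ldha_KO, 4.55 in Ldhb_KO and 2.08 in WT. In each of these 3 genes Ldha_KO stood alone above the other 3 libraries. Atf3, a stress-induced member of the family, was at 2.77 in SO, 14.1 in Ldha_KO, 5.14 in Ldhb_KO and 2.47 in WT. Jund was at 38.9 in SO, 89.6 in Ldha_KO, 51.7 in Ldhb_KO and 46.0 in WT.

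Dusp1, Ccn2 and Klf6, further members of the list, went the same way at smaller size. Dusp1, a phosphatase that switches off MAP kinases, was at 35.0 in SO, 89.7 in Ldha_KO, 56.6 in Ldhb_KO and 37.1 in WT, a difference of -1.33. Ccn2, a secreted matrix protein and target of Yap, was at 21.9 in SO, 54.1 in Ldha_KO, 9.68 in Ldhb_KO and 10.5 in WT. Klf6 was at 10.7 in SO, 25.9 in Ldha_KO, 14.1 in Ldhb_KO and 8.48 in WT. The list did not move as 1 block. Egr1, a zinc finger factor induced through the same kinases, was highest in Ldhb_KO, at 25.9 in SO, 47.6 in Ldha_KO, 116 in Ldhb_KO and 68.1 in WT. Ier2 was at 136 in SO and 121 in Ldha_KO, and Junb was at 24.8 in SO, 14.2 in Ldha_KO, 58.8 in Ldhb_KO and 48.4 in WT. Btg2 was higher in SO and just under the call, at 59.4 in SO and 29.6 in Ldha_KO. Fosl1 and Zfp36 were also higher in SO, under the call.

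**Figure D3:**
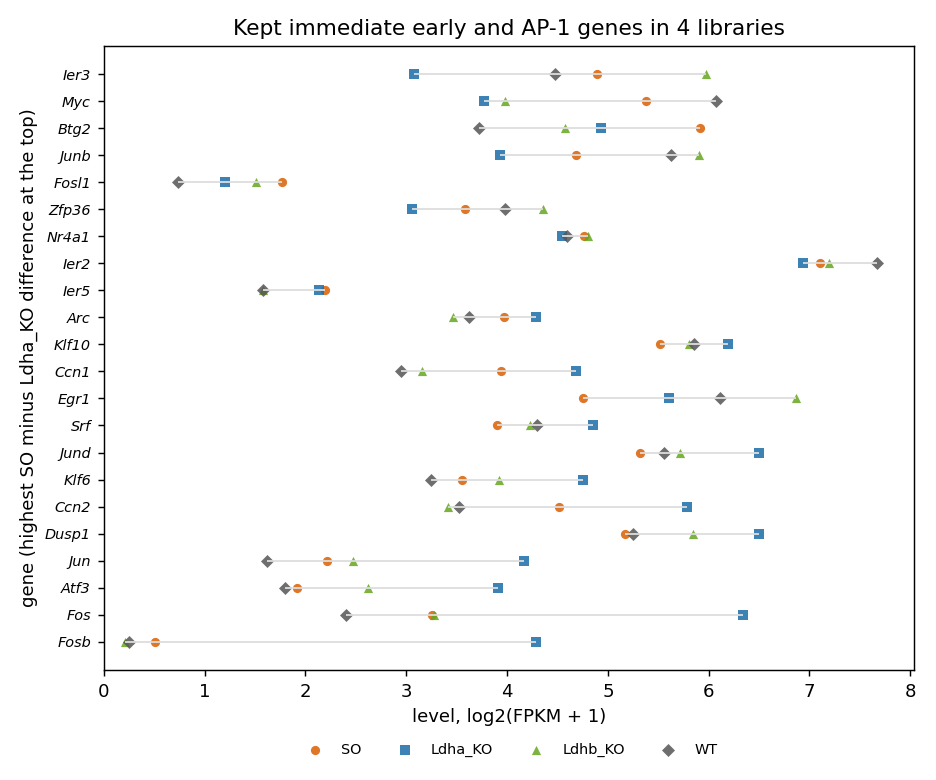
Each row is 1 of the 22 kept immediate early and AP-1 genes, with its level as log2(FPKM + 1) on the horizontal axis and 1 marker for each of the libraries SO, Ldha_KO, Ldhb_KO and WT. For Fosb, Fos and Jun the Ldha_KO marker lies far to the right of the other 3, and for Ier3 and Myc it lies leftmost.

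The bases before the start sites of Fos and Dusp1 are shown because these genes stood among the lower ones and held a searched motif. Capitals mark TATAAA in Fos, and TGACGTCA and CACGTG in Dusp1. Each is 250 bases from RefSeq, GRCm38.p6, read 5' to 3' on the gene's strand, from chr12:85473640-85473889 on the plus strand for Fos and from chr17:26508473-26508722 on the minus strand for Dusp1.
Fos: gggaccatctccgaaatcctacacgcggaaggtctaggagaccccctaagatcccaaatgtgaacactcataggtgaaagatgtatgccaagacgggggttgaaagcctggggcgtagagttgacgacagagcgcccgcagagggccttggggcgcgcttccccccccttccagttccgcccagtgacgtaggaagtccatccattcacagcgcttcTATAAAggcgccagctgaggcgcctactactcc
Dusp1: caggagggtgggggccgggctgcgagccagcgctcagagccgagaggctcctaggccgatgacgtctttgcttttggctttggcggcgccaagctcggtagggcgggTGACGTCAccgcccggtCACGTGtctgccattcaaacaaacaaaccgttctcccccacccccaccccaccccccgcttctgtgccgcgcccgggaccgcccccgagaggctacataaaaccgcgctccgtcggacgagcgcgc
The TATAAA of Fos, the core of a TATA box, begins 33 bases before its start. In Dusp1, TGACGTCA, the full cAMP response element, lies just upstream of CACGTG, an E-box that begins 126 bases before the start. Both strands were searched. TGACGTCA was in 3.08% of 10166 kept genes with a promoter in the table, TATAAA in 7.71% and CACGTG in 10.3%. Of the 8 called immediate early genes with a promoter there, 1 held TGACGTCA, 1 held TATAAA and 2 held CACGTG, Dusp1 and Klf6. TGACGTG, in 2.67% of promoters and in part an overlap of TGACGTCA, was in 0 of the 8. TGATGCAAT, in 0.0984% of promoters, and 1 spelling of the CArG box bound by Srf, in 0.0295%, were in 0 of the 8 too. A match describes letters in this window and is not a binding site. Bases further upstream and other spellings of these motifs were not searched. A count of 0 thus does not show that these genes lack such sites.

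Some feedback inhibitors of growth factor signalling were higher in SO, in a direction opposite to that of Fos. Spry4, a Sprouty protein that blocks receptor tyrosine kinase signalling to Erk, was at 75.3 in SO, 15.6 in Ldha_KO, 80.0 in Ldhb_KO and 111 in WT, a difference of 2.20. Spry2 was at 59.2 in SO, 17.8 in Ldha_KO, 33.4 in Ldhb_KO and 72.1 in WT, a difference of 1.68. For both genes Ldha_KO was the lowest of the 4 libraries. Spry1 was nearly level at 11.3 in SO and 10.5 in Ldha_KO. Of 24 FGF ligands, receptors and Erk feedback genes 21 were kept, with a median of 0.10. Among them 2 were higher and 1, Dusp1, was lower, against 0.769% and 1.13% of all kept genes. The ligand Fgf4 was at 117 in SO and 109 in Ldha_KO, its receptor Fgfr1 was at 31.3 in SO and 26.1 in Ldha_KO, and the Erk target Etv5 was at 141 in SO and 135 in Ldha_KO. Dusp6, a feedback phosphatase of Erk, was at 41.3 in SO, 22.6 in Ldha_KO, 26.4 in Ldhb_KO and 47.4 in WT.

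The LIF pathway, which keeps mouse embryonic stem cells undifferentiated through Stat3, held 2 genes that stood apart. Socs3, a feedback inhibitor of the LIF receptor, was at 66.9 in SO, 16.0 in Ldha_KO, 125 in Ldhb_KO and 76.3 in WT, a difference of 2.00. Myc, a growth factor target and proto-oncogene, was at 40.5 in SO, 12.7 in Ldha_KO, 14.8 in Ldhb_KO and 66.5 in WT, so Ldha_KO was the lowest. They were the members higher of 18 kept, with 0 lower, against 0.769% and 1.13% of all kept genes. The median of the list was 0.12. Socs2, a relative of Socs3, was at 24.1 in SO and 25.8 in Ldha_KO. The kinase Jak1 was at 9.85 in SO and 16.8 in Ldha_KO. Stat3 was at 40.9 in SO and 40.9 in Ldha_KO, and Lifr was at 14.4 in SO and 12.5 in Ldha_KO. Klf4, a Stat3 target, was in the other direction at 133 in SO and 193 in Ldha_KO. Ier3, an early response gene, was at 28.8 in SO, 7.44 in Ldha_KO, 61.9 in Ldhb_KO and 21.2 in WT.

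In the BMP pathway the ligand and a target diverged. Bmp4 was at 54.7 in SO, 20.3 in Ldha_KO, 20.8 in Ldhb_KO and 58.1 in WT, a difference of 1.39. Id2, an inhibitor of differentiation that BMP signals induce, was at 72.3 in SO, 153 in Ldha_KO, 106 in Ldhb_KO and 57.0 in WT, a difference of -1.07. Id1 and Id3, which BMP also induces, lay within 1, with Id1 at 197 in SO and 223 in Ldha_KO. Of 17 Wnt genes kept and 17 Nodal and activin genes kept 0 differed 2-fold. The widest among the Wnt genes was the ligand Wnt6, at 6.09 in SO and 2.73 in Ldha_KO, and Nodal was at 73.6 in SO and 65.0 in Ldha_KO.

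Imprinted genes, which are expressed from 1 parental copy under the control of DNA methylation, were lower in SO where they differed. Of 42 found 32 were kept, 0 were higher and 6 were lower, against 0.769% higher and 1.13% lower over all kept genes, with a median of -0.29. Rian, a noncoding RNA of the imprinted Dlk1 and Meg3 region, was at 3.93 in SO, 20.5 in Ldha_KO, 20.6 in Ldhb_KO and 4.65 in WT. Meg3, from the same region, was at 2.70 in SO, 12.8 in Ldha_KO, 14.03 in Ldhb_KO and 3.51 in WT. Mest, a hydrolase gene expressed from the paternal copy, was at 10.3 in SO, 47.1 in Ldha_KO, 47.2 in Ldhb_KO and 13.6 in WT.

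In Rian, Meg3 and Mest SO lay near WT, and Ldha_KO lay near Ldhb_KO. Plagl1, a zinc finger factor, followed the same order at 0.793 in SO, 4.93 in Ldha_KO, 3.61 in Ldhb_KO and 0.713 in WT. H19, a maternally expressed noncoding RNA, was at 1.57 in SO, 6.37 in Ldha_KO, 28.7 in Ldhb_KO and 1.65 in WT. Impact, a regulator of the kinase Gcn2, was at 46.6 in SO, 114 in Ldha_KO, 67.0 in Ldhb_KO and 52.96 in WT. The split between libraries in the value of 1 read runs along the same line, SO with WT, and its part in this pattern was not tested. Other imprinted genes did not follow it, as Snrpn at 170 in SO and 120 in Ldha_KO, Peg10 at 99.0 in SO and 65.9 in Ldha_KO, and Igf2 at 1.63 in SO and 1.56 in Ldha_KO. Of 23 kept genes of DNA methylation and demethylation 0 were higher and 1 was lower, against 0.769% and 1.13% of all kept genes. The lower one was Gadd45g, at 0.957 in SO and 5.69 in Ldha_KO. The methyltransferases and a Tet enzyme were nearly level, with Dnmt1 at 75.5 in SO and 69.2 in Ldha_KO, Dnmt3a at 26.5 in SO and 26.2 in Ldha_KO, and Tet1 at 27.7 in SO and 26.6 in Ldha_KO.

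Germline and meiosis genes held the most calls of any list. Of 45 found 40 were kept, 1 was higher in SO and 11 were lower, against 0.769% and 1.13% of all kept genes, and the median was -0.73. With a pseudocount of 0.1 the lower members numbered 17. Stra8, which retinoic acid induces at the entry into meiosis, was at 9.41 in SO, 31.0 in Ldha_KO, 14.8 in Ldhb_KO and 2.71 in WT. Sycp3, a protein of the synaptonemal complex, was at 17.7 in SO, 47.0 in Ldha_KO, 40.8 in Ldhb_KO and 23.5 in WT. Dazl, which binds and regulates mRNAs of germ cells, was at 24.0 in SO, 51.1 in Ldha_KO, 16.5 in Ldhb_KO and 13.03 in WT. Ldha_KO was the highest of the 4 libraries for each of these genes. Tex19.1 was just under the call at 106 in SO, 212 in Ldha_KO, 67.9 in Ldhb_KO and 88.4 in WT. Nanos3, which protects early germ cells, was the 1 member higher, at 2.38 in SO, 0.354 in Ldha_KO, 1.45 in Ldhb_KO and 1.70 in WT. Ddx4, a helicase of the germ line, was at 11.6 in SO and 16.1 in Ldha_KO.

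Most of the other germline calls came from clustered gene families of the X chromosome. The Xlr genes encode relatives of synaptonemal complex proteins, and those of the Xlr3 and Xlr4 groups include imprinted copies. Against 1.13% of all kept genes, 7 of the 9 Xlr genes were 2-fold lower in SO. All 9 were kept and lower, with a median of -1.31. Their summed level was 16.2 in SO, 62.2 in Ldha_KO, 49.7 in Ldhb_KO and 12.96 in WT. Xlr3c differed most, at 1.56 in SO, 13.6 in Ldha_KO, 3.53 in Ldhb_KO and 1.12 in WT. Of 31 Rhox genes, homeobox genes of reproductive tissues, 7 were kept and 2 were 2-fold lower. Rhox5 was at 27.9 in SO, 76.1 in Ldha_KO, 41.4 in Ldhb_KO and 29.4 in WT, and Rhox1 was at 4.26 in SO, 12.9 in Ldha_KO, 11.02 in Ldhb_KO and 4.57 in WT. Copies within both families are similar, so single members are uncertain. These families were chosen after their values were seen.

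**Figure D4:**
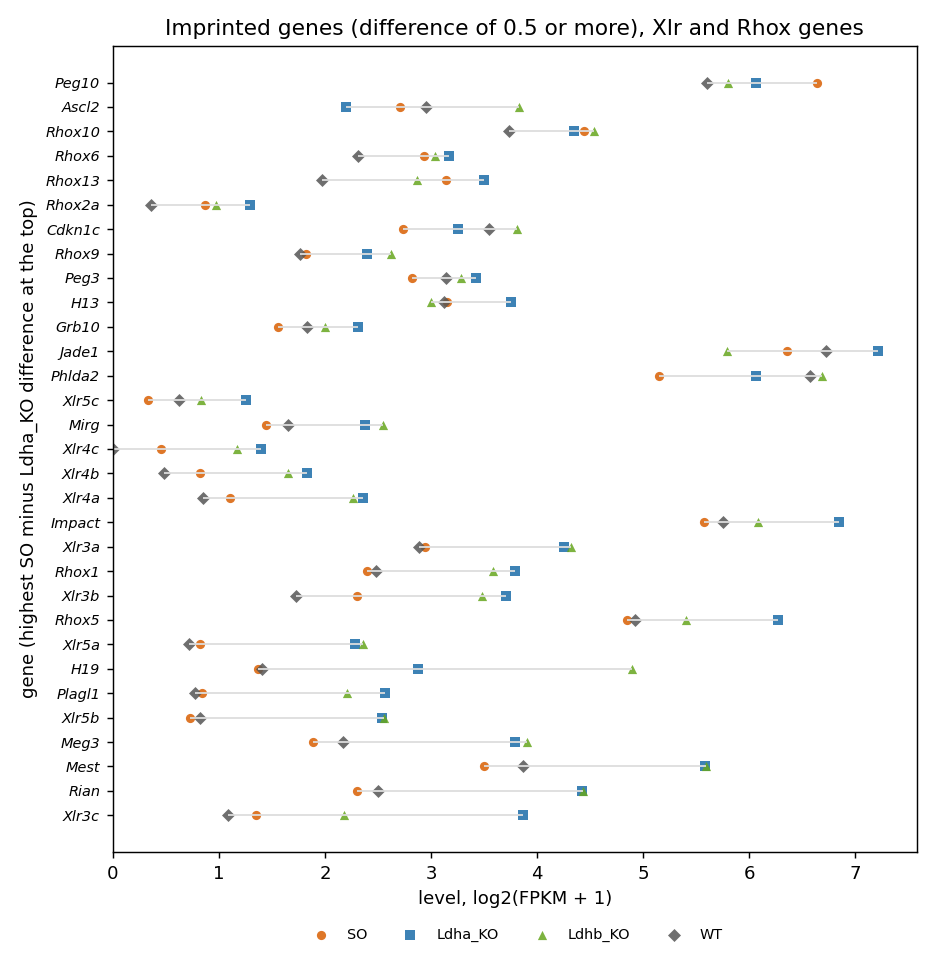
Each row is a kept imprinted gene with a difference of at least 0.5 in size, or a kept Xlr or Rhox gene, with its level as log2(FPKM + 1) on the horizontal axis and 1 marker for each of the libraries SO, Ldha_KO, Ldhb_KO and WT. For Rian, Meg3 and Mest the SO and WT markers lie together to the left of those of Ldha_KO and Ldhb_KO, as for Mest at 10.3 in SO and 47.1 in Ldha_KO.

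The X chromosome held a larger share of lower genes than any autosome. Of its 480 kept genes, 26 were 2-fold lower in SO, which is 5.42%, and 2 were higher. With no filter the share lower was 3.58%, as more genes were compared. Over the autosomes 113 of 12242 kept genes were lower, which is 0.923%, and single autosomes ranged from 0.323% to 2.04%. The median difference on the X chromosome was -0.10, and autosome medians lay between -0.07 and 0.06. The Xlr and Rhox families held 9 of the 26. Without those families, 17 of 464 genes were lower, which is 3.66%, and the median was -0.09.

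**Figure D5:**
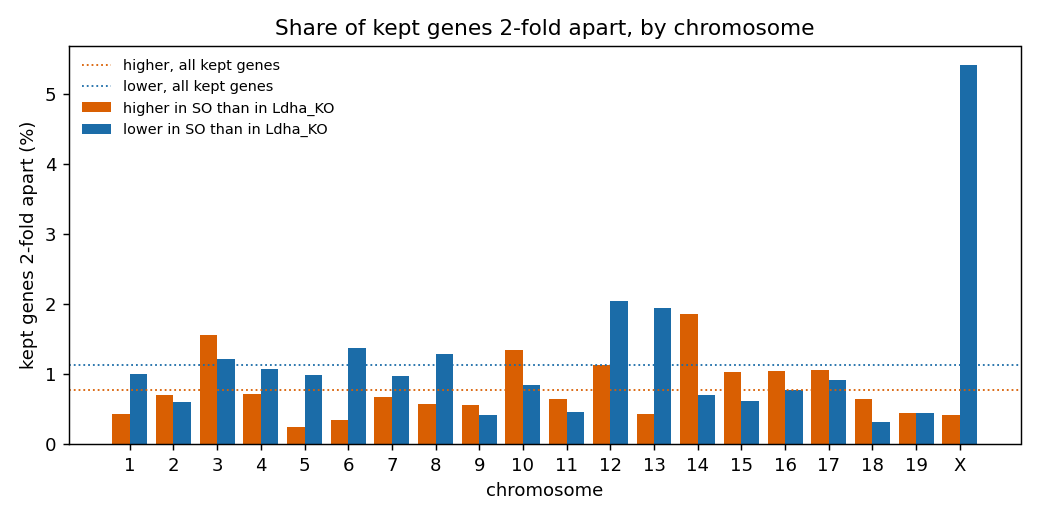
For each chromosome, bars give the percentage of kept genes that were at least 2-fold higher or lower in SO than in Ldha_KO, and dotted lines give the same over all kept genes. The bar for genes lower on the X chromosome reaches 5.42%, while those of the autosomes end at or below 2.04%.

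The remaining lower genes of the X chromosome were of mixed kinds and were named after their values were seen. Pnma5, a relative of retroviral Gag, was at 8.44 in SO, 36.3 in Ldha_KO, 25.6 in Ldhb_KO and 18.7 in WT. Efhc2 was at 7.69 in SO, 21.2 in Ldha_KO, 17.7 in Ldhb_KO and 7.73 in WT. Rbmx, an RNA-binding protein in splicing, was at 5.42 in SO, 14.7 in Ldha_KO, 4.25 in Ldhb_KO and 5.75 in WT. The uncharacterised 1700013H16Rik was at 3.33 in SO, 23.8 in Ldha_KO, 6.85 in Ldhb_KO and 2.55 in WT. Xist, which silences an X chromosome in female cells, was below the filter in both, at 0.321 in SO and 0.556 in Ldha_KO.

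Genes of the amino acid starvation response leaned lower in SO than in Ldha_KO. Targets of its factor Atf4 had 34 members kept of 37, with a median of -0.45. Among them 1 was higher and 4 were lower, against 0.769% and 1.13% of all kept genes. The lower ones were Atf3, Nupr1, Atf5 and Ddit3, which are transcription regulators, while Ddit4 was higher. Ddit3, which encodes the factor Chop, was at 8.90 in SO, 20.996 in Ldha_KO, 98.3 in Ldhb_KO and 15.6 in WT. Nupr1 was at 5.91 in SO, 18.9 in Ldha_KO, 62.6 in Ldhb_KO and 15.7 in WT. For both genes Ldhb_KO was the highest and SO the lowest. Atf4 was at 130 in SO, 218 in Ldha_KO, 264 in Ldhb_KO and 213 in WT, and Psat1, an enzyme of serine synthesis, was at 111 in SO, 216 in Ldha_KO, 349 in Ldhb_KO and 221 in WT. Trib3 and Chac1, 2 further Atf4 targets, ran the other way, with Trib3 at 15.3 in SO and 10.3 in Ldha_KO.

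The metallothioneins, which bind zinc and copper and are induced by metals and glucocorticoids, included the most abundant of the lower genes. Mt2 was at 1124 in SO, 3834 in Ldha_KO, 3481 in Ldhb_KO and 2188 in WT, a difference of -1.77. Mt1 was at 911 in SO, 2899 in Ldha_KO, 2354 in Ldhb_KO and 1506 in WT, a difference of -1.67. SO was the lowest of the 4 libraries for both Mt1 and Mt2. Mt3 was under the call, at 30.5 in SO and 40.2 in Ldha_KO. Mt4 went the other way, at 3.84 in SO and 3.00 in Ldha_KO. This family was chosen after its values were seen. The zinc exporter Slc30a1, which the same metal sensor induces, was at 6.56 in SO and 12.6 in Ldha_KO, under the call.

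Nrf2 targets, the enzymes of glutathione and quinone metabolism, leaned lower with a median of -0.23 over 29 kept members. Only Osgin1 differed 2-fold, at 0.0414 in SO and 1.13 in Ldha_KO, close to the filter. The list held 0 higher and 1 lower, against 0.769% and 1.13% of all kept genes. With a filter of 5 Osgin1 dropped out. Nqo1, a quinone reductase, was at 45.3 in SO, 87.8 in Ldha_KO, 43.5 in Ldhb_KO and 45.5 in WT. Gclc, the rate-limiting enzyme of glutathione synthesis, was at 33.2 in SO, 61.1 in Ldha_KO, 26.2 in Ldhb_KO and 27.3 in WT. Of these 2 enzymes the level in Ldha_KO stood above those of the other libraries. Targets of p53 leaned the other way, with a median of 0.18 over 31 kept members. Among these 1 was higher and 0 were lower, against 0.769% and 1.13% of all kept genes. Perp, a desmosome protein and p53 target, was at 49.8 in SO, 18.1 in Ldha_KO, 20.8 in Ldhb_KO and 11.6 in WT. The cell cycle inhibitor gene Cdkn2a was at 20.1 in SO, 41.3 in Ldha_KO, 36.6 in Ldhb_KO and 14.4 in WT. It just passed the call, and its difference was -0.99 with the libraries scaled to equal sums.

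Single noncoding RNAs were higher in SO, and these were named after their values were seen. Neat1, the scaffold of paraspeckles, was at 82.7 in SO, 30.3 in Ldha_KO, 79.8 in Ldhb_KO and 55.9 in WT. Terc, the RNA template of telomerase, was at 4.74 in SO, 1.148 in Ldha_KO, 1.61 in Ldhb_KO and 2.20 in WT. Snord17, a small nucleolar RNA, was at 36.7 in SO, 7.13 in Ldha_KO, 26.4 in Ldhb_KO and 12.2 in WT. The value of so short a gene can rest on few fragments. Libraries of polyadenylated RNA may also fail to capture the mature forms of Terc and Snord17. Malat1, a neighbour of Neat1, was level at 42.2 in SO and 42.5 in Ldha_KO.

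Host genes of small nucleolar RNAs lay in the other direction. Of 17 Snhg genes, a family chosen after its values were seen, 15 were kept, with a median of -0.37. In this family 0 were higher and 3 were lower, against 0.769% and 1.13% of all kept genes. Snhg6 was at 10.8 in SO, 30.5 in Ldha_KO, 11.02 in Ldhb_KO and 12.4 in WT. Snhg12 was at 28.2 in SO, 60.5 in Ldha_KO, 26.2 in Ldhb_KO and 27.5 in WT, and Snhg1 was at 45.8 in SO, 95.4 in Ldha_KO, 42.5 in Ldhb_KO and 54.6 in WT. Ldha_KO stood alone as the high library. The same held for Taf1d, a subunit of the RNA polymerase I factor and itself a host gene, at 63.4 in SO, 198 in Ldha_KO, 76.9 in Ldhb_KO and 91.9 in WT. Dancr, also a host gene, was at 30.2 in SO, 70.0 in Ldha_KO, 21.4 in Ldhb_KO and 38.0 in WT. Mir17hg, the host of a miRNA cluster that Myc activates, was at 16.3 in SO, 38.1 in Ldha_KO, 10.9 in Ldhb_KO and 24.6 in WT. Mir22hg was at 2.55 in SO, 9.73 in Ldha_KO, 2.58 in Ldhb_KO and 2.07 in WT. Genes of ribosomal proteins were level, with a median of 0.03 over 37 kept genes. Only Rpl38 was 2-fold lower, against 1.13% of all kept genes, at 4.26 in SO and 9.96 in Ldha_KO.

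Markers of embryonic stem cells were at high levels in both libraries. Pou5f1 was at 1115 in SO, 972 in Ldha_KO, 1084 in Ldhb_KO and 1330 in WT. Nanog was at 541 in SO, 591 in Ldha_KO, 424 in Ldhb_KO and 503 in WT. Esrrb was at 207 in SO and 220 in Ldha_KO, and Zfp42 at 523 in SO and 526 in Ldha_KO. Sox2 differed most among the core factors, at 344 in SO, 204 in Ldha_KO, 389 in Ldhb_KO and 371 in WT. Of 32 pluripotency genes, all kept, only Dppa3 differed 2-fold, and the median was 0.09. Dppa3 was higher in SO, against 0.769% of all kept genes.

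Single factors of early lineages stood apart. Otx2, which drives the exit from the naive state, was at 69.4 in SO, 25.3 in Ldha_KO, 28.4 in Ldhb_KO and 61.6 in WT, a difference of 1.42. It was the 1 member called of 19 kept formative and primed genes, against 0.769% higher and 1.13% lower over all kept genes. Dnmt3b, a further member, was at 44.0 in SO and 37.8 in Ldha_KO. Osr2, a zinc finger factor of limb and palate, was at 0.138 in SO, 9.66 in Ldha_KO, 0.145 in Ldhb_KO and listed at 0 in WT, a difference of -3.23. It was thus detected above the filter in Ldha_KO alone. Dll1, a Notch ligand, was at 0.626 in SO, 3.24 in Ldha_KO, 1.67 in Ldhb_KO and 0.398 in WT. Neurod1, a neurogenic factor, was at 8.06 in SO, 3.00 in Ldha_KO, 3.31 in Ldhb_KO and 1.56 in WT. Gadd45g, a stress and differentiation gene, was at 0.957 in SO, 5.69 in Ldha_KO, 1.21 in Ldhb_KO and 1.46 in WT.

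Further genes at either end were in none of the gene lists given above. Pramel7, a leucine-rich repeat protein of the inner cell mass, was at 11.6 in SO, 3.04 in Ldha_KO, 0.618 in Ldhb_KO and 2.09 in WT. Trim43a, a gene of the cleavage-stage embryo, was at 5.13 in SO, 1.08 in Ldha_KO, 0.204 in Ldhb_KO and 0.516 in WT. It was not in the list of 2-cell-like genes, but as for their summed level, SO and Ldha_KO stood above both other libraries. In both Pramel7 and Trim43a SO was the highest library. Prr15l was at 5.03 in SO and 0.720 in Ldha_KO, Smim22 at 5.80 in SO and 1.34 in Ldha_KO, and Gm1976 at 5.17 in SO and 1.22 in Ldha_KO. Mup6, of a family of similar urinary protein genes, was at 9.78 in SO and 2.56 in Ldha_KO. Lower were Spint5, which resembles protease inhibitors, at 1.19 in SO, 9.03 in Ldha_KO, 5.24 in Ldhb_KO and 2.08 in WT, and Tuba3b, an alpha tubulin, at 3.32 in SO and 13.004 in Ldha_KO. E2f2, a cell cycle factor, was at 11.4 in SO, 4.48 in Ldha_KO, 6.96 in Ldhb_KO and 12.9 in WT. It was the 1 higher of 40 cell cycle genes kept, with 1 lower, against 0.769% and 1.13% of all kept genes. Gja1, a gap junction protein, was at 73.1 in SO and 39.9 in Ldha_KO, and the matrix inhibitor Serpine2 was at 80.8 in SO, 45.6 in Ldha_KO, 32.3 in Ldhb_KO and 11.5 in WT, both under the 2-fold call.

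Defining markers of other cell types were mostly low or below the filter. Eomes and some genes that these lists share with embryonic stem cells were not. Of 13 fibroblast or feeder markers 5 were kept and 0 differed 2-fold. The level summed over all 13 was 49.6 in SO, 44.8 in Ldha_KO, 55.3 in Ldhb_KO and 52.6 in WT, most of it Thy1, which embryonic stem cells also express. Dcn, Lum and Fap were listed at 0 in all 4 libraries. Of the trophectoderm and keratin genes 18 were kept and 0 differed 2-fold, with Cdx2 at 0.188 in SO and 0.119 in Ldha_KO. The trophectoderm marker Eomes was at 9.22 in SO, 6.77 in Ldha_KO, 3.77 in Ldhb_KO and 4.84 in WT. Hand1 was at 2.12 in SO and 1.09 in Ldha_KO, and Gata3 and Elf5 were below the filter. Keratins were well above the filter, with Krt19 at 32.2 in SO, 20.4 in Ldha_KO, 34.1 in Ldhb_KO and 6.38 in WT, and Krt8 at 19.3 in SO, 30.6 in Ldha_KO, 22.3 in Ldhb_KO and 19.7 in WT. Of the primitive endoderm genes 15 were kept and 0 differed 2-fold, with Gata6 at 0.435 in SO and 0.787 in Ldha_KO. Gata4, at 1.26 in SO and 0.923 in Ldha_KO, and Sox7, at 1.37 in SO and 0.892 in Ldha_KO, just passed the filter. Of 19 mesoderm genes found 3 were kept and 0 differed 2-fold, with Mesp2 widest at 5.68 in SO and 2.36 in Ldha_KO. Of 20 neuroectoderm genes 9 were kept, and the 1 higher and 1 lower were the Neurod1 and Dll1 given above. Over all kept genes these shares were 0.769% and 1.13%.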

How the data were processed

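Per the labels' protocols, polyadenylated RNA was sequenced from mouse embryonic stem cells, with 1 library per group. The submitters' processing notes name edgeR 3.26.8, HTSeq 0.11.2, SAMtools 1.9 and Bowtie2 2.3.4.3, with mm9 as the build. What each tool did, and which gene annotation was used, was not given in the sources used here. Values the authors deposited, 1 per gene symbol, were read as FPKM from their range and steps, and RPKM could not be told apart from FPKM. As read depth was not given in the sources used here, no counting interval was computed.

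From these values the difference of log2(FPKM + 1), SO minus Ldha_KO, was computed over symbols with at least 1 in either library, with a pseudocount of 1, and a difference of at least 1 was called. No test was possible. Relative depth came from the most common ratio of values below 0.2. Scripts ran in Python 3.11.15 with numpy 2.4.6, pandas 2.3.3 and matplotlib 3.10.9, and were tested on simulated data. Of 1031 entries in 37 gene lists, 1027 were found, 14 of them by a RefSeq synonym and some under the same symbol. The comparison and the lists were chosen with earlier results of these data known, and 11 families named by symbol were added after the values were seen. Named genes were Ldha, Ldhb, Ldhc, Hdac1 and chosen 2-cell and pluripotency markers, the 15 highest and 15 lowest genes with at least 5 in the higher library, the 3 genes on each side of the filter, and up to 8 called members of each list; further genes were named after their values were seen. Chromosomes, promoters and miRNAs came from RefSeq tables of GRCm38.p6, another build than the authors', matched by symbol. Alternatives were a pseudocount of 0.1, no filter, a filter of 5, equal summed values and median centring.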

Additional observations from a re-analysis of the deposited data

How the results depend on the processing

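With a pseudocount of 0.1, SO had 328 genes higher than Ldha_KO and 332 lower, the genes lower on the X chromosome numbered 43, the 2-cell-like genes higher 3 and the germline genes lower 17. Without the filter the median of the immediate early genes was -0.32, that of the 2-cell-like genes 0.29, and 3.58% of genes on the X chromosome were lower. With a filter of 5, 94 genes were lower, 15 of them on the X chromosome, and 0 of the 2-cell-like and 0 of the germline genes were higher, since fewer genes were compared. Equal summed values (a factor of 1.01 on SO) and median centring left these counts within 1.5 times of those reported. Under all these settings together, 370 counts stayed within that range and 30 did not. No named gene that was called changed direction. Zfp42, nearly level with a difference of -0.00844, changed sign with equal summed values and stayed within 0.01 of 0. Leaving out a replicate could not be done and no paired analysis was possible because each group had 1 library. The unstated depth limits genes near the filter, where a few fragments set the value.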

Other observations

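Families that belong to none of the pathways above were read after their values were seen. Ly6a, which encodes the surface antigen Sca-1, was at 29.3 in SO, 7.27 in Ldha_KO, 3.21 in Ldhb_KO and 4.63 in WT, so SO stood alone as the high library. Ly6g6e was at 29.3 in SO and 12.6 in Ldha_KO, and Ly6g6d was at 10.2 in SO and 4.12 in Ldha_KO, while Ly6e, the most abundant member, was at 101 in SO and 87.2 in Ldha_KO. Of 10 kept Ly6 genes 3 were higher and 0 lower, against 0.769% and 1.13% of all kept genes. S100a6, a calcium-binding protein, was at 87.2 in SO, 41.9 in Ldha_KO, 90.8 in Ldhb_KO and 30.0 in WT. Anxa8, an annexin, was at 7.19 in SO, 2.92 in Ldha_KO, 1.38 in Ldhb_KO and 0.138 in WT. Among kept annexin and S100 genes these 2 were higher and 0 were lower, against 0.769% and 1.13% of all kept genes. The median of that list was 0.16, and S100a13 went the other way, at 4.42 in SO and 9.22 in Ldha_KO. Irf1, a factor of the interferon response, was at 19.9 in SO, 8.82 in Ldha_KO, 9.90 in Ldhb_KO and 20.3 in WT. Oasl1 went the other way, at 1.10 in SO, 3.57 in Ldha_KO, 2.23 in Ldhb_KO and 1.31 in WT. Among kept interferon and antigen presentation genes, these were the 1 higher and the 1 lower, against 0.769% and 1.13% of all kept genes. The median of that list was 0.27.

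Genes lower in SO included the testis alpha tubulins, with Tuba3a at 41.1 in SO, 99.9 in Ldha_KO, 92.5 in Ldhb_KO and 51.6 in WT, while the ubiquitous Tuba1b was at 843 in SO and 715 in Ldha_KO. Kept histone genes with symbols that begin with H1f, H2ac, H2bc, H3c or H4c numbered 36, with a median of -0.52. Of these 0 were higher and 5 were lower, against 0.769% and 1.13% of all kept genes. H2bu2, Hist1h2bp and H2bfm, outside that set, were also 2-fold lower. Most were at low values, as H2ac11, listed at 0 in SO and at 2.59 in Ldha_KO, and polyadenylated RNA holds few of the transcripts of the clustered histone genes. Platr genes, noncoding RNAs of pluripotent cells, went both ways. Platr14 was at 17.2 in SO, 36.8 in Ldha_KO, 29.5 in Ldhb_KO and 35.0 in WT, and Platr7 was at 11.003 in SO, 4.26 in Ldha_KO, 5.87 in Ldhb_KO and 8.32 in WT.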
